A study of Drosophila melanogaster with 2 samples.

Results

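The proteasome subunit genes of Drosophila melanogaster are described here for how much Capicua-GFP chromatin immunoprecipitation signal lies at their promoters. They were taken as the protein-coding genes whose symbol begins with Prosalpha, Prosbeta, Rpn and a digit or Rpt and a digit, which gave 48 genes of 13945 on the 6 major arms. Of these, 14 encode the core particle, 18 encode the cap, and 16 carry an R or T after the subunit number and are copies of a subunit gene, most of them known as testis-type copies. The 32 genes with no such letter are called main subunit genes below, and some of them have a copy among the 16.

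The proteasome degrades proteins that carry a chain of ubiquitin. Its core particle is a barrel in which inner rings of beta subunits hold the proteolytic sites and outer rings of alpha subunits gate the entrance, and the regulatory cap on its ends binds the ubiquitin chain, removes it and unfolds the substrate. In the cap, a base with a ring of ATPases sits on the barrel and a lid covers the side of the base. In flies, the main subunit genes are active in most cells, are raised together by the transcription factor Cnc when proteasome activity falls, and have copies that take over some positions in the male germline.

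The series holds 1 group with 2 biological replicates, numbered 1 and 3, of ChIP-seq (chromatin immunoprecipitation followed by sequencing). Both came from whole adults, males and females together and of unknown age, of 1 transgenic line in which Capicua, encoded by cic, ends in GFP. An antibody against GFP recovered the fusion from chromatin sonicated to 200 to 800 bp. Capicua is an HMG-box repressor that receptor tyrosine kinase signalling switches off. The sources do not say what drives the transgene or how the flies of each replicate were raised, so the spread between replicates may be partly technical, and with 1 group there is no comparison of conditions. In whole flies, strong binding in few cells and weak binding in many cells cannot be told apart.

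The values are scores that the authors gave each peak, with no unit and no stated scaling for depth. Read counts were not used here, so depth is unknown. A list called reproducible below holds the 7152 entries that passed the authors' threshold on the irreproducible discovery rate, with scores of 115.8 to 3067 and a median of 179.6. A pooled relaxed list of 30000 entries reaches down to a score of 30.7. The strength of a gene is the highest score of a summit within 1000 bp of any of its transcript starts in the reproducible list, else in the pooled relaxed list, and 0 where neither has one. Every entry of the reproducible list was also in the pooled one with the same score. In scores, the threshold is given below as the lowest score of the reproducible list, 115.8. Whether entries found only in the relaxed list score above it was not counted.

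In the reproducible list, with a summit counted for every gene with a start within 1000 bp, main subunit genes stood close to the genome as a whole. No copy had a summit. The core particle had a summit at 3 of 14 genes (21.4%), the cap at 7 of 18 (38.9%) and the copies at 0 of 16, against 4257 of 13945 protein-coding genes (30.5%). All main subunit genes together came to 10 of 32 (31.2%). With each summit counted only for the gene with the nearest start, 5 of 32 kept one, against 23.6% of all genes. In the pooled relaxed list the copies stood far below the other classes, with 11 of 14 core genes (78.6%), 17 of 18 cap genes (94.4%) and 3 of 16 copies (18.8%), against 9344 of all genes (67.0%). Of the 32 main subunit genes, 18 thus had only a summit that stayed under the authors' threshold, and 13 of the 16 copies had none in either list. The median strength was 86.3 for core genes, 105 for cap genes and 0 for copies, against 65.8 for all genes. Genes are not replicates of a condition, so these counts carry no test.

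**Figure D1:**
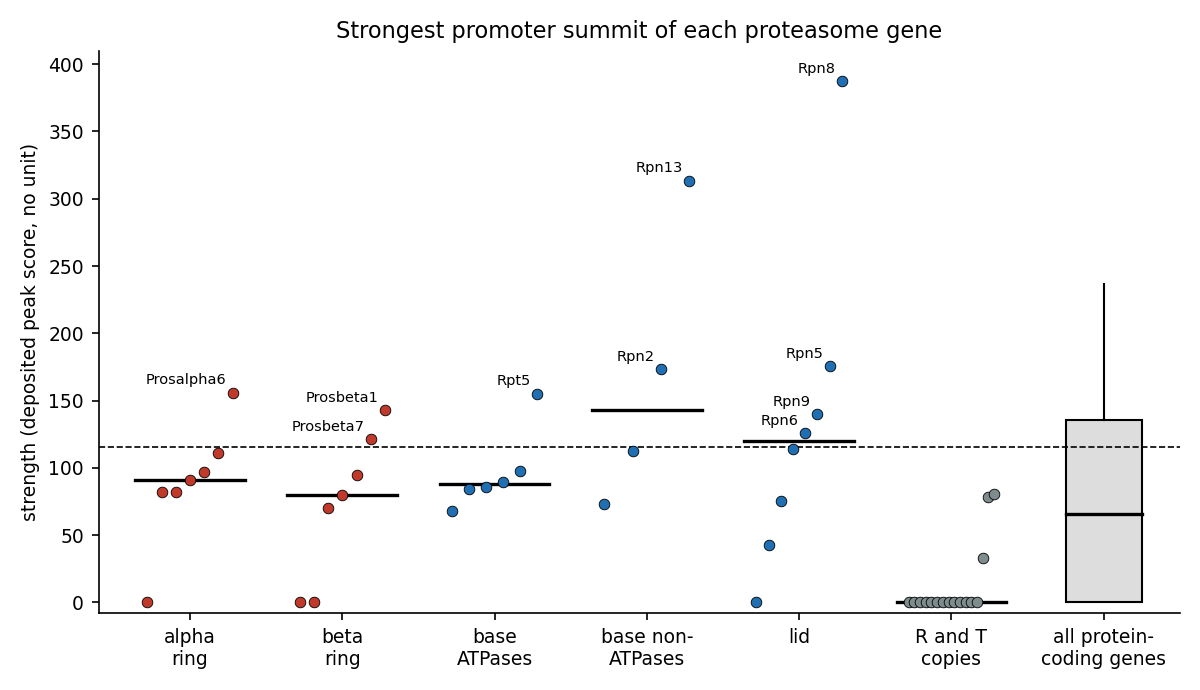
Strength of each of the 48 proteasome genes (vertical axis, deposited peak score, no unit) by role; each point is a gene, the thick bar the median of the role, and the dashed line the lowest score in the reproducible list (115.8). The box for all 13945 protein-coding genes spans the quartiles (0 to 136, median 65.8) and its line reaches the 90th percentile (237). Rpn8 (388, and 179.7 within 500 bp of a start) and Rpn13 (313) stand far above the other members, and 13 of 16 copies lie at 0.

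The promoters of a few strong and weak members are shown to let the sequence at them be set beside their strength. Each is 300 bases, from 250 before to 50 after the start, 5′ to 3′ on the gene's strand, from the RefSeq Release 6 assembly, which is dm6. Capitals mark TATCGATA, the DNA replication-related element (DRE), the target of the factor Dref at many promoters of genes used in most cells, and TGACNNNGC, the antioxidant response element (ARE) that Cnc binds together with a small Maf protein. Prosalpha6, an alpha-ring gene with a strength of 156 (chr2L:10221101-10221400, + strand), has 1 DRE. Prosalpha6T, its copy with a strength of 0 (chr2L:13231789-13232088, + strand), has none of the motifs sought. Prosbeta2, which encodes a catalytic subunit and has a strength of 0 (chr3L:14999701-15000000, + strand), has 1 DRE. Rpn5, a lid gene with a strength of 175 (chr3R:5789243-5789542, + strand), has none of the motifs. Rpn7, a lid gene with a strength of 0 (chr3R:22462005-22462304, - strand), has 1 DRE and 1 ARE.
Prosalpha6: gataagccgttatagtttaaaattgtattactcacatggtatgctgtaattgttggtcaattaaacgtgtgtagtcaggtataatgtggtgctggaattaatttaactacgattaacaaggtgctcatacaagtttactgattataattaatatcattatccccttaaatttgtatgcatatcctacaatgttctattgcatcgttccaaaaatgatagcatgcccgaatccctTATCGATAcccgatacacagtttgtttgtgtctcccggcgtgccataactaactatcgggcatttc
Prosalpha6T: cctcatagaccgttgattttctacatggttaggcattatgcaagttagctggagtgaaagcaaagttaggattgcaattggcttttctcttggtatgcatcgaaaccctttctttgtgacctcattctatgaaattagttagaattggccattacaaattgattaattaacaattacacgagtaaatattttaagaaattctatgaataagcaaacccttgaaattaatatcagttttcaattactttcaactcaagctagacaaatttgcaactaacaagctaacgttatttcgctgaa
Prosbeta2: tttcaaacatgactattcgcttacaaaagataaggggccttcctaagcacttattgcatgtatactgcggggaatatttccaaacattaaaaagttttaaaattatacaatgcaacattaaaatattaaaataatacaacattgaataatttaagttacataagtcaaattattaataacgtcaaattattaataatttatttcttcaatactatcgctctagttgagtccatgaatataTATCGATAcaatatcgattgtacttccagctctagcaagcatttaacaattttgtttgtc
Rpn5: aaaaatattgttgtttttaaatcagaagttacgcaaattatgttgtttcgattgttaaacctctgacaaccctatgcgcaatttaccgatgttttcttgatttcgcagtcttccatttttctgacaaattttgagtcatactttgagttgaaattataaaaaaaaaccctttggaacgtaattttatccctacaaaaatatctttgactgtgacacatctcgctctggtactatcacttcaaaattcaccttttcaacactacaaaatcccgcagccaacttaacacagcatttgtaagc
Rpn7: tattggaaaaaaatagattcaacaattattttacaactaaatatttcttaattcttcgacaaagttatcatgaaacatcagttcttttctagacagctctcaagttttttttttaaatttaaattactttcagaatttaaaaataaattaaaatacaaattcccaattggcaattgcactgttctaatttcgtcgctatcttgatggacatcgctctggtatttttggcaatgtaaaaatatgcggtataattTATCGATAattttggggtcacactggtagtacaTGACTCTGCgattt

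In these examples the DRE stood both at a gene with a reproducible summit and at genes with none, and Rpn5, with the highest strength of the 5, had no DRE. The summits that give Prosalpha6 and Rpn5 their strength lie outside the printed windows, 559 and 307 bp upstream of the start. Both are nearer to the start of another gene (Npc1a and Hat1), and the DRE of Prosalpha6 is 543 bp from its summit. These sequences therefore do not show the bases under either summit. The site with 20 bases on either side is shown for 4 further genes with the DRE upstream of their start. Prosbeta6 has it on the minus strand at chr3L:16610435-16610482, Rpt5 on the plus strand at chr3R:23752810-23752857, Rpn3 on the plus strand at chr2L:19051573-19051620 and Rpn12 on the plus strand at chr3L:16582792-16582839.
Prosbeta6: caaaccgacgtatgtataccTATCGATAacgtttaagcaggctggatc
Rpt5: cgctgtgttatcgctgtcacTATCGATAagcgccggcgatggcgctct
Rpn3: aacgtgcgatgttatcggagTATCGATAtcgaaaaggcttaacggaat
Rpn12: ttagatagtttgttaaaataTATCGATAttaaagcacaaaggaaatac

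The bases around the DRE differed from gene to gene in these windows, while the 8 capitals are the same by construction of the search. The first base of the DRE lay 44 bp upstream of the start in Prosbeta6, 46 bp in Rpt5, 197 bp in Rpn3 and 216 bp in Rpn12. The strengths of these genes were 79.5, 155, 114 and 42.5 in the same order, and Rpt5 alone of the 4 had a reproducible summit.

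The alpha ring, which gates the barrel, had 1 of 7 genes in the reproducible list and 6 of 7 in the pooled relaxed list, with a median strength of 90.6. Prosalpha6 had the highest strength, 156, with 67.6 in replicate 1 and 90.02 in replicate 3 (mean 78.8 ± 15.8, SD, n = 2). Its summit lay 559 bp upstream of its start and only 160 bp from the start of Npc1a, a sterol transport gene, so the summit is nearer to the neighbour than to the proteasome gene. Within 500 bp of the start, the strength of Prosalpha6 was 54.6, under the threshold and under Prosalpha2. Prosalpha2 followed with 111, and 61.0 and 53.6 in replicates 1 and 3, at 81 bp upstream. Prosalpha3 had 96.8, with 60.7 in replicate 1 and 36.6 in replicate 3. Both summits were nearer to the alpha-ring gene than to any other start. Prosalpha5 had its summit on the base of a start, at a strength of 90.6 with 48.9 in replicate 1 and 33.5 in replicate 3. Prosalpha4 had 82.0, with 43.6 in replicate 1 and 37.7 in replicate 3, at 341 bp upstream and 12 bp from the start of kat80, a katanin subunit gene. Prosalpha7 had 81.7, with 41.8 in replicate 1 and 54.1 in replicate 3. Of these 5 genes below the threshold, Prosalpha7 alone scored higher in replicate 3.

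Prosalpha1 was the alpha-ring gene without a summit in any of the 4 lists, and its nearest relaxed summit was 3040 bp away. Its 0 cannot be read as a lack of binding. Prosalpha1 and its copy Prosalpha1R lie in an exact tandem repeat of the reference assembly, in which a run of 3112 bases recurs 3110 bp further on. All 1952 words of 50 bases within 1000 bp of the start of Prosalpha1 occurred at another place on the 6 arms, and so did all 1952 around Prosalpha1R, while 44 of the 48 members had no such word and the highest share in the other members was 3.38%. How the authors treated reads that match more than 1 place is not given in the sources used here, so a lack of binding and a lack of placed reads cannot be told apart at these genes. Without both, the core particle had 11 of 13 genes in the relaxed list (84.6%) and the copies 3 of 15, and the reproducible counts stayed at 3 and 0.

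The beta ring, which holds the proteolytic sites, had 2 of 7 genes in the reproducible list and 5 of 7 in the relaxed list, with a median strength of 79.5. Prosbeta1, the caspase-like subunit, had 143, with 103 in replicate 1 and 50.5 in replicate 3 (mean 77.0 ± 37.4, SD, n = 2), and its summit lay 69 bp upstream and 52 bp from the start of Rrp42, an exosome subunit gene. Prosbeta7, a structural subunit, had 121, with 76.0 in replicate 1 and 49.3 in replicate 3 (mean 62.7 ± 18.9, SD, n = 2). Its summit lay 55 bp downstream of the nearest of its 2 starts, with the start of another gene no nearer than 3028 bp. This makes Prosbeta7 the one member whose reproducible summit has no start of another gene within 1000 bp. Both reproducible beta genes scored higher in replicate 1. Prosbeta5, the chymotrypsin-like subunit, had 94.3, with 43.3 in replicate 1 and 57.1 in replicate 3, at 71 bp upstream and 23 bp from the start of the polarity gene dgo. Prosbeta6 had 79.5, with 0 in replicate 1 and 63.3 in replicate 3. Prosbeta3 had 70.1, with 50.9 in replicate 1 and 21.4 in replicate 3. The summits of Prosbeta6 and Prosbeta3 lay within 29 bp of their own starts but leaned on opposite replicates, as Prosbeta6 was missing from the list of replicate 1.

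The other catalytic subunit gene, Prosbeta2, which encodes the trypsin-like subunit, had no summit in the pooled list, 0 in replicate 1 and 18.6 in replicate 3. The structural subunit gene Prosbeta4 also had none in the pooled list, with 20.2 in replicate 1 and 0 in replicate 3. Both single-replicate values are close to the floor of those lists, which start at 17.5 in each replicate. The 3 catalytic subunit genes of the core thus ranged from 143 for Prosbeta1 through 94.3 for Prosbeta5 to 0 for Prosbeta2. The summits behind the Prosbeta1 and Prosbeta5 values are closer to Rrp42 and dgo than to the subunit genes. Whether signal goes with catalytic role was not tested.

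The base ATPases unfold the substrate and feed it into the barrel. They had 1 of 6 genes in the reproducible list and 6 of 6 in the relaxed list, with a median strength of 87.7. Rpt5 had 155, with 65.6 in replicate 1 and 89.6 in replicate 3 (mean 77.6 ± 16.9, SD, n = 2). Its summit lay 17 bp upstream of its start and 25 bp from that of RanBP3, which is 42 bp away from the Rpt5 start, so the summit sits between both. Rpt4 had 97.5, with 49.5 in replicate 1 and 41.9 in replicate 3. Rpt1 had 89.8, with 60.5 in replicate 1 and 35.4 in replicate 3. Rpt2 had 85.6, with 56.6 in replicate 1 and 33.6 in replicate 3. These ATPase genes all scored higher in replicate 1 than in replicate 3, unlike Rpt5. Rpt6 had 84.5, with 47.8 in replicate 1 and 40.0 in replicate 3. Rpt3 was lowest at 67.7, with 33.7 in replicate 1 and 31.9 in replicate 3, and its summit lay 473 bp upstream and 98 bp from the start of CG11122. Apart from Rpt3, every ATPase gene had its summit between 14 and 35 bp upstream of its nearest own start, which for Rpt2 is inside the annotated gene. The 5 ATPase genes under the threshold lay within a range of 67.7 to 97.5.

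The other base subunits are scaffolds and ubiquitin receptors, with 2 of 4 genes in the reproducible list, 4 of 4 in the relaxed list and a median strength of 143. Rpn13, a ubiquitin receptor, had 313, above 94.1% of all protein-coding genes, with 139 in replicate 1 and 196 in replicate 3 (mean 168 ± 40.4, SD, n = 2). Its summit lay 302 bp upstream of the nearest of its 3 starts and 31 bp from the start of CtsL1, a lysosomal cathepsin gene. Rpn2, a scaffold, had 173, with 78.1 in replicate 1 and 97.6 in replicate 3 (mean 87.9 ± 13.8, SD, n = 2), and its summit lay 109 bp upstream of its own start and 149 bp from that of Slbp, which encodes a histone mRNA binding protein. Thus the Rpn2 summit was nearer to the proteasome gene and the Rpn13 summit nearer to the neighbour. Rpn10, the other ubiquitin receptor, had 113 with its summit on the base of a start, and 64.7 in replicate 1 and 49.9 in replicate 3. Rpn1, the scaffold that receives shuttle factors, was lowest at 72.9, with 32.2 in replicate 1 and 37.1 in replicate 3.

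The lid carries Rpn11, the enzyme that cuts off the ubiquitin chain, on a frame of other subunits. It had 4 of 8 genes in the reproducible list and 7 of 8 in the relaxed list, with a median strength of 119.8. Rpn8, the inactive partner of Rpn11, had the highest strength of all members, 388, above 96.1% of all genes, with 185 in replicate 1 and 200.0 in replicate 3 (mean 192 ± 10.9, SD, n = 2). That summit lay 786 bp upstream of the nearest of its 2 starts and 165 bp from a start of the kinase gene Slik. It was at position 24402219, inside the annotated gene, which runs from 24400028 to 24404527 on the plus strand. Within 500 bp of a start, Rpn8 had 179.7, and Rpn13 kept 313 and then stood highest of the members. Rpn5 had 175, with 75.1 in replicate 1 and 104 in replicate 3 (mean 89.3 ± 20.2, SD, n = 2), at 307 bp upstream and 112 bp from the start of the histone acetyltransferase gene Hat1. For both lid genes with the highest strength, then, the summit lay nearer to the neighbour than to the lid gene. Rpn9 had 139.7, with 61.7 in replicate 1 and 81.6 in replicate 3 (mean 71.7 ± 14.1, SD, n = 2), at 160 bp upstream. Rpn6 had 126, with 68.0 in replicate 1 and 62.6 in replicate 3 (mean 65.3 ± 3.82, SD, n = 2), at 113 bp upstream and 137 bp from the start of ave. The Rpn6 summit lay slightly nearer to its own nearest start than to that of ave. Like the Rpn8 summit, those of Rpn9 and Rpn6 lay inside the annotated gene.

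Below the threshold, Rpn3 had 114, with 41.0 in replicate 1 and 77.4 in replicate 3. The deubiquitinase gene Rpn11 had 75.3, with 41.3 in replicate 1 and 51.1 in replicate 3. Rpn12 had 42.5, with 0 in replicate 1 and 34.5 in replicate 3. These 3 lid genes all scored higher in replicate 3. Rpn7 had no summit in the pooled list or in replicate 1, and 19.7 in replicate 3, near that list's floor; its nearest relaxed summit was 1490 bp away. The lid thus had the widest range of any role, 0 to 388.

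The authors' threshold fell among the main subunit genes. Just inside it stood Prosbeta7 at 121 and Rpn6 at 126, and just outside Rpn3 at 113.8, Rpn10 at 112.7 and Prosalpha2 at 111.2, so that 3 members lay within 5 units below it. Of the 10 members in the reproducible list, 8 were weaker than the median of all genes in that list (186), and 11.2% of the list's entries scored above Rpn8.

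**Figure D2:**
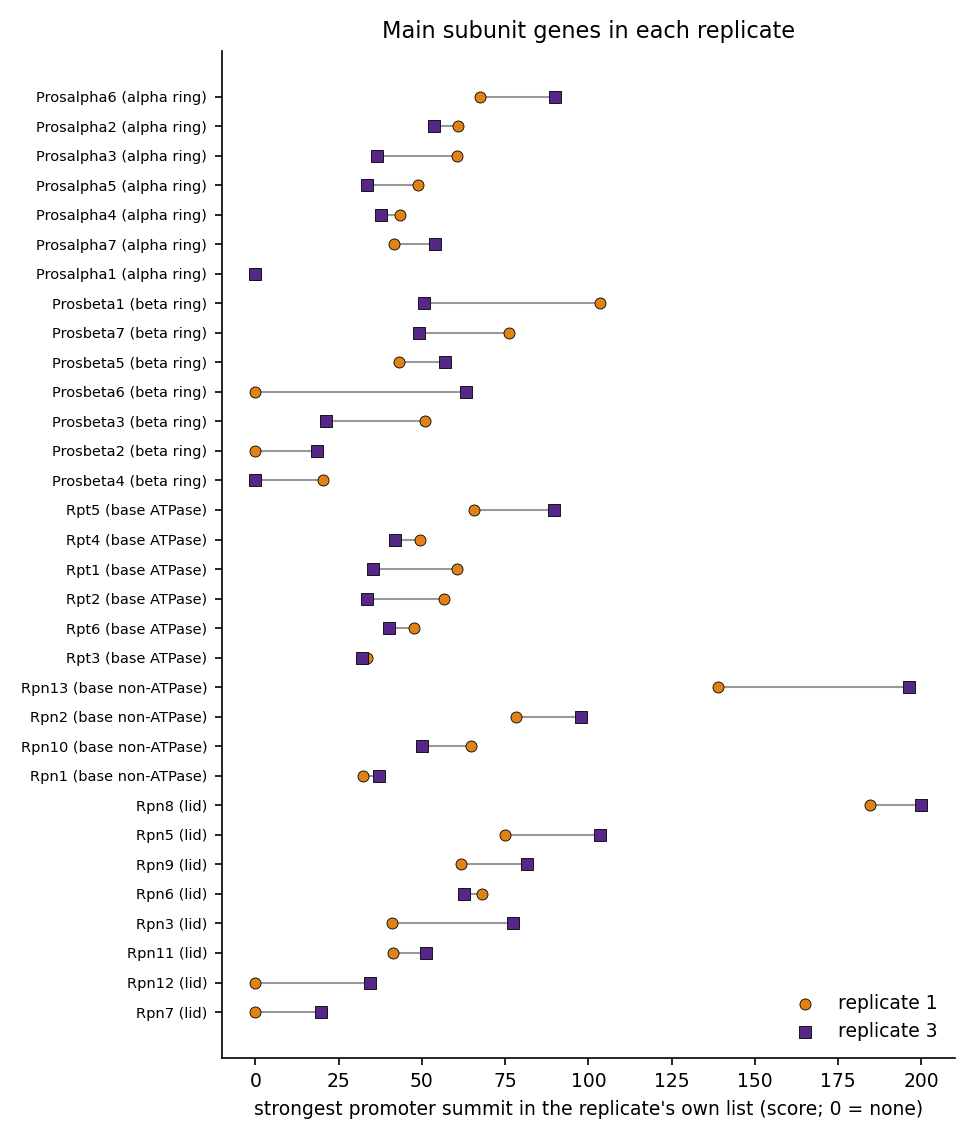
Strongest promoter summit of the 32 main subunit genes in the list of replicate 1 (orange circles) and of replicate 3 (violet squares), by gene and role (vertical axis), as deposited score (horizontal axis, no unit; 0 where the list has no summit in the window). A grey line joins both values of a gene; 26 genes have a value in both lists, and Rpn8 and Rpn13 lie far right of the others in both.

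Taken one replicate at a time, the main subunit genes were found at similar rates. The list of replicate 1 had a promoter summit at 27 of 32 main subunit genes (84.4%) and 3 of 16 copies, against 67.0% of all genes. The list of replicate 3 had one at 30 of 32 main subunit genes (93.8%) and 3 of 16 copies, against 65.9% of all genes. In 26 main subunit genes both lists had a summit, and 31 had one in at least 1 list. Among the 26, 14 scored higher in replicate 1 and 12 in replicate 3, with a ratio of replicate 1 to replicate 3 from 0.530 to 2.38 and a median of 1.07, and 19 differed by less than 1.5-fold. Of the 26, 7 of the 10 genes in the reproducible list scored higher in replicate 3, and 11 of the 16 others scored higher in replicate 1. With 2 replicates and no stated scaling between their lists, no difference between genes was tested against this spread.

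Many of the reproducible summits at members lay close to the start of another gene. Another protein-coding gene had the start nearest to the summit at 6 of the 10 members in the reproducible list: Prosalpha6, Prosbeta1, Rpn13, Rpn8, Rpn5 and Rpn9. Over all genes in that list the same held for 1139 of 4257 (26.8%). Where a summit was counted only for the gene with the nearest start, 5 of 32 main subunit genes and 0 of 16 copies kept one. The 5 were 1 of 14 core genes and 4 of 18 cap genes, against 23.6% of all genes. Main subunit genes had another protein-coding start within 1000 bp of their own in 22 of 32 cases (68.8%) and copies in 4 of 16 (25.0%), against 42.9% of all genes. Of the 10 main subunit genes with no such neighbour, Prosbeta7 alone had a reproducible summit, against 21.2% of the 7960 genes without such a neighbour, yet all 10 had a relaxed one. The 12 copies with no such neighbour had 0 reproducible summits and 1 relaxed summit. Of all genes without such a neighbour, 54.5% had a relaxed summit.

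**Figure D3:**
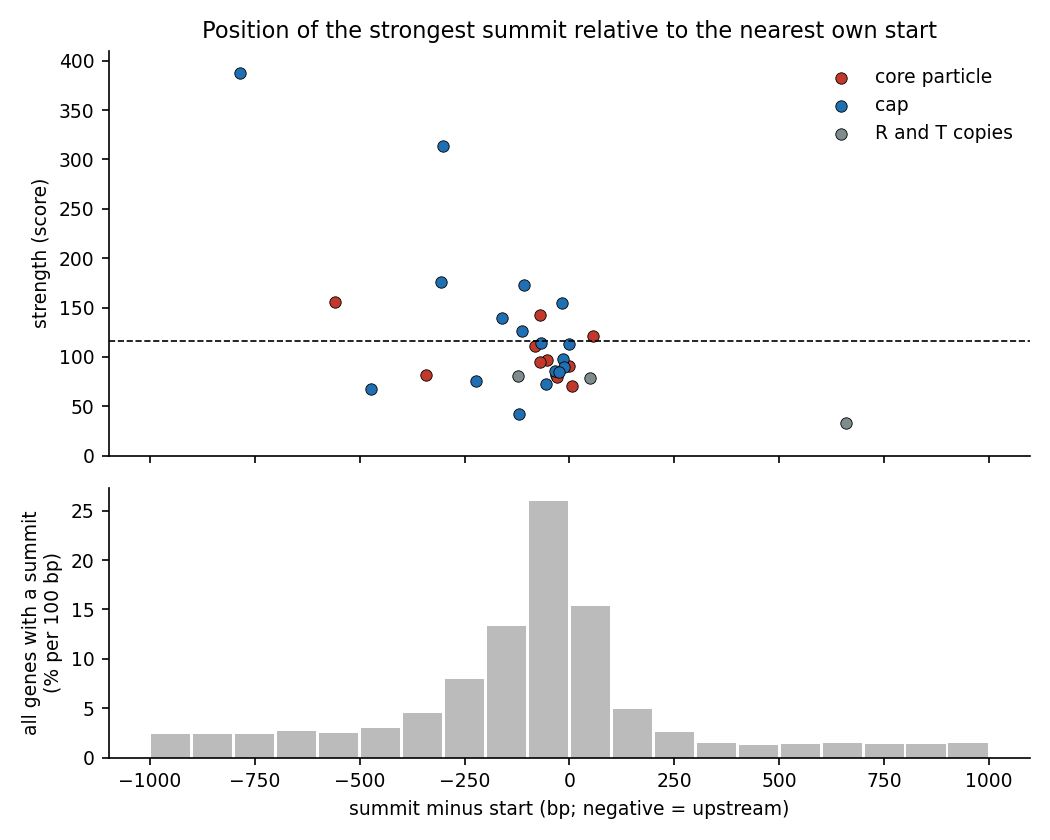
Upper panel: strength (deposited score, no unit) of the 31 proteasome genes with a summit against the distance of that summit from the nearest start of the gene (horizontal axis, bp, negative upstream), in red for core, blue for cap and grey for copies; the dashed line is the lowest reproducible score. Lower panel: the same distance for all genes with a summit, as percent per bin of 100 bp. Most members lie just upstream of their nearest start. The strongest, Rpn8, lies 786 bp upstream of its nearest start but inside the annotated gene.

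Where a main subunit gene had a relaxed summit, the strongest one sat close to the start. It lay within 150 bp of an own start in 20 of 28 main subunit genes (71.4%), 9 of 11 in the core and 11 of 17 in the cap, against 52.0% of all genes with a summit. It lay upstream of the nearest own start in 24 of 28 (85.7%), against 67.2% of all such genes. Among those 24, the summits of Rpn8, Rpn9, Rpn6, Rpn3 and Rpt2 were nonetheless inside the annotated gene. The median distance was 68.5 bp for main subunit genes and 139 bp for all genes. The strong members depart from this: of the 4 strongest, Rpn8, Rpn13, Rpn5 and Rpn2, only Rpn2 had its summit within 150 bp. A single annotated start was given for 36 of the 48 members, against 10246 of all 13945 genes. No member has more than 3, and among all genes with at most 3 starts 29.1% had a reproducible summit.

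The copies, which replace subunits mainly in the male germline, had almost no signal. Prosbeta2R2 had a relaxed summit of 80.6, with 49.6 in replicate 1 and 26.6 in replicate 3 (mean 38.1 ± 16.2, SD, n = 2), 123 bp upstream of its start but 6 bp from that of CG1116. Rpt3R had 78.3, with 50.2 in replicate 1 and 25.0 in replicate 3 (mean 37.6 ± 17.8, SD, n = 2), 49 bp inside the gene and 30 bp from the start of Alg12. Both lie nearer to the start of a neighbour than to their own. Prosalpha4T1 had 32.7, with 0 in replicate 1 and 19.5 in replicate 3, at 658 bp inside the gene. Prosbeta2R1 had no pooled summit, 18.5 in replicate 1 and 0 in replicate 3. The other 12 copies had none in any of the 4 lists, with the nearest relaxed summit between 3055 and 62124 bp away, and of these Prosalpha1R lies in the tandem repeat named above.

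Set beside its copies, a subunit's own gene was usually the one with a summit within 1000 bp. The summits of Prosalpha6, Prosalpha4, Prosbeta5, Rpn13 and Rpt3, and of the copies Prosbeta2R2 and Rpt3R, lay nearer to the start of another gene. Another start lay within 1000 bp at 68.8% of main subunit genes and 25.0% of copies, and what this adds to the comparison was not tested. Prosalpha6 scored 156 and Prosalpha6T 0, Prosalpha3 scored 96.8 and Prosalpha3T 0, and Prosbeta5 scored 94.3 with both of its copies, Prosbeta5R1 and Prosbeta5R2, at 0. Prosalpha4 scored 82.0, Prosalpha4T1 32.7 and Prosalpha4T2 0. In the cap, Rpn13 scored 313 and Rpn13R 0, Rpn12 scored 42.5 and Rpn12R 0, Rpt4 scored 97.5 and Rpt4R 0, and Rpt6 scored 84.5 and Rpt6R 0. The order was turned round for Prosbeta2, at 0 with its copies Prosbeta2R2 at 80.6 and Prosbeta2R1 at 0, and for Rpt3, at 67.7 with Rpt3R at 78.3. For Rpt3 this held in replicate 1 (33.7, with Rpt3R at 50.2) and not in replicate 3 (31.9, with Rpt3R at 25.0). Prosbeta4 and both of its copies, Prosbeta4R1 and Prosbeta4R2, were at 0, and so were Prosalpha1 and Prosalpha1R in the tandem repeat. The copies also differ in build: 6 of 16 have a single exon, against 4 of 32 main subunit genes.

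**Figure D4:**
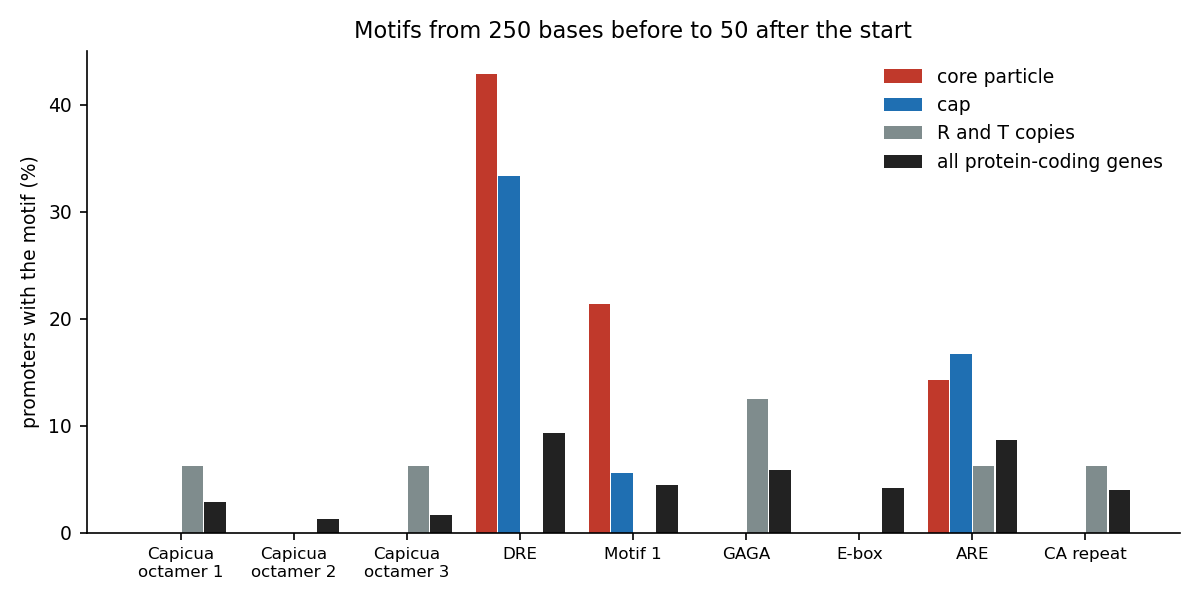
Share of promoters (vertical axis, percent), from 250 bases before to 50 after the start, that hold each motif on either strand, for core (red, n = 14), cap (blue, n = 18) and copies (grey, n = 16) beside all 13945 protein-coding genes (black). The Capicua octamers 1, 2 and 3 are TGAATGAA, TGAATGGA and TCAATGAA. The DRE is at 42.9% of core and 33.3% of cap promoters, against 9.36% of all, and no main subunit promoter holds an octamer.

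The octamers that Capicua is known to bind were not found at the main subunit promoters. On either strand, TGAATGAA was in 0 of 32 main subunit promoters and 1 of 16 copies (Rpt6R), against 2.88% of all promoters of the same length. TGAATGGA was in none of the 48, against 1.33%, and TCAATGAA was in 0 of 32 and in 1 copy (Prosbeta4R1), against 1.70%. Within 100 bp of the strongest summit, 0 of 28 main subunit genes had any of the 3 octamers, against 2.66%, 0.952% and 1.15% of all genes with a summit for TGAATGAA, TGAATGGA and TCAATGAA, shares so low that 0 of 28 is near the background. No match says only that these letters are not in these windows.

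The DRE was the motif most often found in the main subunit promoters. It was in 12 of 32 (37.5%), 6 of 14 in the core and 6 of 18 in the cap, and in 0 of 16 copies, against 9.36% of all promoters. The genes were Prosalpha3, Prosalpha5, Prosalpha6, Prosbeta1, Prosbeta2, Prosbeta6, Rpt5, Rpn3, Rpn7, Rpn9, Rpn12 and Rpn13. Each had 1 site, 10 of the 12 upstream of the start and 6 of those within 100 bp of it. The site lay within 100 bp of the strongest summit in 7 of these genes, at 8 bp in Prosbeta6, 13 bp in Prosalpha5 and 22 bp in Rpt5. Rpn3 had a further DRE outside the promoter window, 5 bp from its strongest summit. Counted around summits instead of starts, it was within 100 bp in 8 of 28 main subunit genes (28.6%), against 6.82% of all genes with a summit. In promoter windows, the DRE was found on both sides of the threshold, with the larger share above it. It was in 5 of the 10 main subunit promoters with a reproducible summit and in 7 of the 22 without. For Prosalpha6 and Rpn9, among those 5, it was 543 and 258 bp from the summit. Within 100 bp of the summit, it was in 3 of the 10 genes with a reproducible summit, a share close to the 8 of 28 given above. The median strength was 105 with the DRE and 87.7 without. Whether the DRE goes with strength was not tested.

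Among the other motifs, the ARE was in 5 of 32 main subunit promoters (15.6%) and 1 of 16 copies, against 8.63% of all. The 5 were Prosalpha2, Prosbeta3, Rpt6, Rpn1 and Rpn7, and none had a reproducible summit, against 30.5% of all genes. Over all genes the ARE was in 8.60% of promoters with a reproducible summit and 8.65% of those without, so 0 among so few genes is not read as a result. Motif 1, a core promoter motif of broadly active genes, was in 4 of 32 (Prosalpha2, Prosalpha4, Prosbeta3 and Rpn1), against 4.50%. GAGAGAG was in 0 of 32 and 2 of 16 copies, against 5.87%. The E-box CACGTG was in none of the 48 and the repeat CACACACA in 1 copy, against 4.20% and 4.02%. DRE and ARE occurred together at Rpn7, and Motif 1 and ARE together at Prosalpha2, Prosbeta3 and Rpn1.

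**Figure D5:**
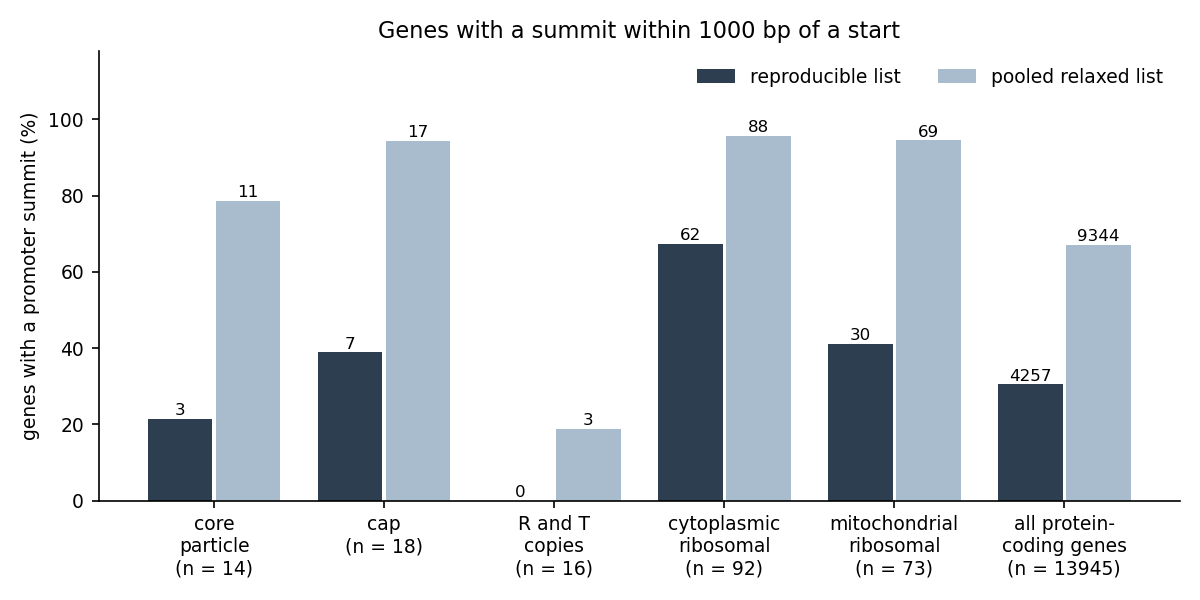
Share of genes (vertical axis, percent) with a summit within 1000 bp of a start in the reproducible list (dark bars) and the pooled relaxed list (light bars), with the number of genes above each bar, for the proteasome classes, 2 other sets of genes for large complexes, and all protein-coding genes. Core and cap reach 78.6% and 94.4% in the relaxed list but 21.4% and 38.9% in the reproducible one, while cytoplasmic ribosomal protein genes reach 67.4% in the reproducible list.

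Genes of the ribosome, another large complex made in most cells, give a measure for these levels. Main subunit genes had a reproducible summit at 10 of 32 (31.2%) and a relaxed one at 28 of 32 (87.5%). Cytoplasmic ribosomal protein genes had 62 of 92 (67.4%) and 88 of 92 (95.7%), and mitochondrial ribosomal protein genes had 30 of 73 (41.1%) and 69 of 73 (94.5%). The median strength was 92.5 for main subunit genes, 164 for cytoplasmic and 94.5 for mitochondrial ribosomal protein genes, so the medians of the proteasome and mitochondrial sets were close. The ribosomal sets were taken by the start of the symbol, with no lettered copies removed. Among genes with a reproducible summit, another gene's start was nearer to it at 6 of 10 main subunit, 12 of 62 cytoplasmic and 21 of 30 mitochondrial genes. The levels thus include summits nearer to neighbours, to unlike degrees. The DRE was in 37.5% of main subunit promoters, 30.4% of cytoplasmic and 20.5% of mitochondrial ribosomal promoters. Across all genes it was in 12.4% of promoters with a reproducible summit, 8.02% of those without, and 2.76% of those without even a relaxed summit.

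Genes that act with the proteasome were described from a list chosen by role, of which 20 of 21 names matched a gene, 9 had a reproducible summit and all 20 a relaxed one, with a median strength of 113, against 30.5%, 67.0% and 65.8 for all genes. Among them, 2 of the 4 regulators of proteasome gene transcription stood highest. The gene cnc, which encodes the factor that raises proteasome genes, had 540.5, with 258 in replicate 1 and 284 in replicate 3, and it has 10 starts and so more places for a summit to count. Keap1, which encodes its inhibitor, had 529.6, with 281 in replicate 1 and 243 in replicate 3, from only 2 starts. Each was thus above Rpn8, the strongest subunit gene. Their partner maf-S had 51.7, with 20.7 in replicate 1 and 32.6 in replicate 3, from a summit nearer to the start of CG11110 (109 bp). Pngl, whose mammalian relative activates the Cnc relative by removing its sugars, had 65.5, with 24.8 in replicate 1 and 44.7 in replicate 3. The high signal at cnc and Keap1 was therefore not shared by these partners.

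Of the ubiquitin genes and their activating enzyme, 2 of 5 had a reproducible summit (all genes 30.5%), the polyubiquitin genes Ubi-p63E at 180.4 and Ubi-p5E at 149, while RpS27A at 115.4 and the activating enzyme Uba1 at 111 fell short of it, as did RpL40 at 48.7. Of the deubiquitinases that sit on the proteasome, Uch-L5, whose mammalian relative docks on Rpn13, had 152 and Usp14 had 35.8. Their summits were nearer to the starts of Jarid2 (27 bp) and CG4972 (170 bp). Shuttle and extraction factors had a reproducible summit at 3 of 6, against the same 30.5%: Ufd1 at 254, Ubqn at 210.0, whose summit is 43 bp from the start of dome, and rngo at 131. Rad23, Npl4 and the segregase TER94 had 54.7, 62.0 and 71.7. Pomp, the assembly chaperone of the core, had 158, and the regulators REG and PI31 had 95.3 and 92.3. No role of the pathway thus had all its members above the threshold or all below it.

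By chromosome, the main subunit genes lay on the arms 2L (4 genes), 2R (10), 3L (5), 3R (9) and X (4), and the copies on 2L (4), 2R (3), 3L (2), 3R (5) and X (2), so neither class was confined to an arm.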

How the data were processed

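The authors deposited peak lists, per the text list beside them, from ChIP-seq of 2 replicates: a relaxed list for each, a relaxed list of both pooled, and a list limited by the irreproducible discovery rate, each made with a control alignment. The deposited score of a peak (its strength, no unit) is the authors' own, and no aligner, peak caller or depth scaling is named in the sources used here. The control was not analysed here, and the lists on dm3 were not used. No read counts were used, so depth is unknown and no counting error can be given.

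Summits on dm6 were converted to 1-based positions and assigned to every protein-coding gene of Ensembl release 115 with a transcript start within 1000 bp, on 6 arms. Values in a replicate come from its own list by the same rule. Lists of all chromosomes fitted the lengths of the RefSeq Release 6 assembly, from which sequence was read. Motifs were sought on both strands, from 250 bases before to 50 after the most upstream start and within 100 bases of the strongest summit; the DRE is palindromic and was counted once. Words of 50 bases were matched exactly over the 6 arms.

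With 1 group, everything is descriptive and nothing was tested. Values in each replicate are given by rule for the 3 strongest members and the weakest of each role, for every main subunit gene outside the reproducible list and for every copy with a summit. The members and lists were chosen with earlier results of these data known. Protein sequences were not used here. Alternatives were other windows, starts, lists and summits, each replicate left out, and 1 alternative added after seeing the data, without the genes of the tandem repeat. The code of the assignment was checked on simulated summits planted within 1000 bp of a start, where 4000 of 4000 planted genes were found. That check covers the code only and not whether a summit belongs to a gene or to its neighbour. Python 3.11.15, numpy 2.4.6, pandas 2.3.3 and matplotlib 3.10.9 were used.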

Additional observations from a re-analysis of the deposited data

How the results depend on the processing

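Counts are given for all proteasome genes, the core, the cap and the copies in this order. The counts in the reproducible list (10, 3, 7 and 0) came to 9, 2, 7 and 0 with a window of 500 bp, and stayed at 10, 3, 7 and 0 with the most upstream start only, with the highest summit of each merged region, and without Prosalpha1 and Prosalpha1R. With a window of 5000 bp they were 30, 11, 16 and 3 (all genes 50.7%). With the nearest start only they were 5, 1, 4 and 0 (23.6%), and with the stronger 50% of entries 2, 0, 2 and 0 (16.3%). In the pooled relaxed list they were 31, 11, 17 and 3 (67.0%). Among genes with no other start within 1000 bp they were 1, 1, 0 and 0 (21.2%). With as many of the strongest entries of a single replicate, that is without replicate 1 or without replicate 3, they ranged from 10 to 14 for all members, 2 to 5 for the core and 8 to 9 for the cap, and were 0 for the copies. The core median strength of 86.3 was 81.8 at 500 bp, 139 at 5000 bp, 60.6 with the nearest start only, 90.6 without Prosalpha1 and Prosalpha1R, and 43.5 to 46.2 in a single replicate, whose scores run lower in all genes (33.5 and 34.5). The cap median of 105 was 212, 85.1 and 50.5 to 58.6 at 5000 bp, with the nearest start only and in a single replicate, and the copies' median of 0 was 39.5 at 5000 bp. Of the 28 members with a value in both replicates, 2 moved by more than the SD at 500 bp, Rpn8 to 179.7 and Prosalpha6 to 54.6, and 20 at 5000 bp, all higher. Of the 20 without such an SD, 1 changed at 500 bp, Prosalpha4T1 to 0, and 13 at 5000 bp, all higher. The replicate scores of 62 of 62 values were the same with the overlapping peak. Of the 9 motif counts, 4 moved around summits, 2 higher and 2 lower. The cause of these changes was not tested. No paired analysis was possible because there is 1 group only. The core and cap counts differ by few genes and hang on a threshold that 3 members miss by less than 5 units, and no difference between classes was tested.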
